A study of Homo sapiens with 4 samples.

Results

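C/D box small nucleolar RNAs (snoRNAs) were examined in RNA-seq of RPE1, an established human cell line derived from retinal pigment epithelium and immortalised with telomerase. Members were all RefSeq rows whose symbol begins with SNORD and a digit, which gave 255 of the 25027 symbols or identifiers in the gene tables, at 293 rows. By annotated length, 235 members were under 100 nt and 20 were 100 nt or more, with a range of 33 to 237 nt and a median of 79 nt. Rows for U3, U8, U13 and U14 did not map to a symbol of this kind and are not analysed here, so the longer class holds other long members. All cells received 10 nM of a Stealth siRNA with a lipid reagent, either a negative control siRNA or an siRNA against SAF-A. The protein SAF-A, short for scaffold attachment factor A and encoded by HNRNPU, is nuclear and binds RNA and chromatin. RNA was taken at 24 h or at 48 h, which made 4 conditions, each with 1 culture and 1 library of total RNA depleted of ribosomal RNA. No condition had a replicate, so no test was possible and every interval below is a 95% counting interval that covers counting error only. Sets of 4 values are in library order: control then SAF-A siRNA at 24 h, then control and SAF-A siRNA at 48 h.

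C/D box snoRNAs form a ribonucleoprotein with fibrillarin, NOP56, NOP58 and SNU13, and most pair with ribosomal RNA or a spliceosomal RNA to direct 2′-O-methylation of a chosen base. Most human members are cut out of introns of host genes, many of which encode ribosomal proteins or translation factors, or are noncoding genes whose introns carry several snoRNAs. Large imprinted arrays in 15q11-q13 and 14q32 hold many near-identical copies with no known ribosomal target.

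HNRNPU, the target of the siRNA, was at 91.2 FPKM (fragments per kilobase of transcript and per 1000000 mapped) with control siRNA at 24 h and at 10.4 FPKM with the siRNA against it. The 48 h pair was at 84.6 and 9.24 FPKM. The SAF-A 48 h library stood apart in depth, with 1216740 mapped reads against 28083822 to 30701282 in the other 3. Of 9 markers of retinal pigment epithelium, MITF and OTX2 were present (MITF 4.23 to 9.01 FPKM) and the other 7, RPE65 among them, were under 1 FPKM in every library. The leukocyte, neuronal and endothelial markers PTPRC, RBFOX3 and PECAM1 were at 0.347 FPKM or less. Of 3 genes typical of the cultured line, the keratin KRT18 was at 142, 124, 229 and 23.3 FPKM and the keratin KRT8 at 41.9, 36.8, 63.9 and 15.4 FPKM. For both keratins the deposited bounds are 0 and 0 in the other 3 libraries, so their values there are uncertain. Vimentin (VIM) was at 2145, 1845, 1586 and 3312 FPKM, so the SAF-A 48 h library stood apart in it too. The part of these differences in the results below was not tested.

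The value of 1 read in these FPKM depended steeply on RNA length, which sets how each level can be read. In the control 24 h library 1 read on SNORD17, the longest member at 237 nt, gave 0.717 FPKM, and 1 read on SNORD10, at 148 nt, gave 3.86 FPKM. One read on SNORD27, at 72 nt, gave 107 FPKM there and 2471 FPKM in the shallow SAF-A 48 h library. Dividing by these values returned whole reads, within 0.05 of a read, for 90.6% of 438 values of members with a single row. Reads are given below beside FPKM, and a ratio of 2 libraries for 1 member is the same on both scales where its reads are whole. Ratios of members use reads rounded to whole numbers, so they can differ from FPKM where reads are split between copies. C/D box snoRNAs took 16.3%, 17.6%, 19.3% and 9.47% of the summed FPKM of all genes, in library order. They took 0.031%, 0.0512%, 0.0328% and 0.0597% of the mapped reads, so the order of the libraries differed between the scales.

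**Figure D1:**
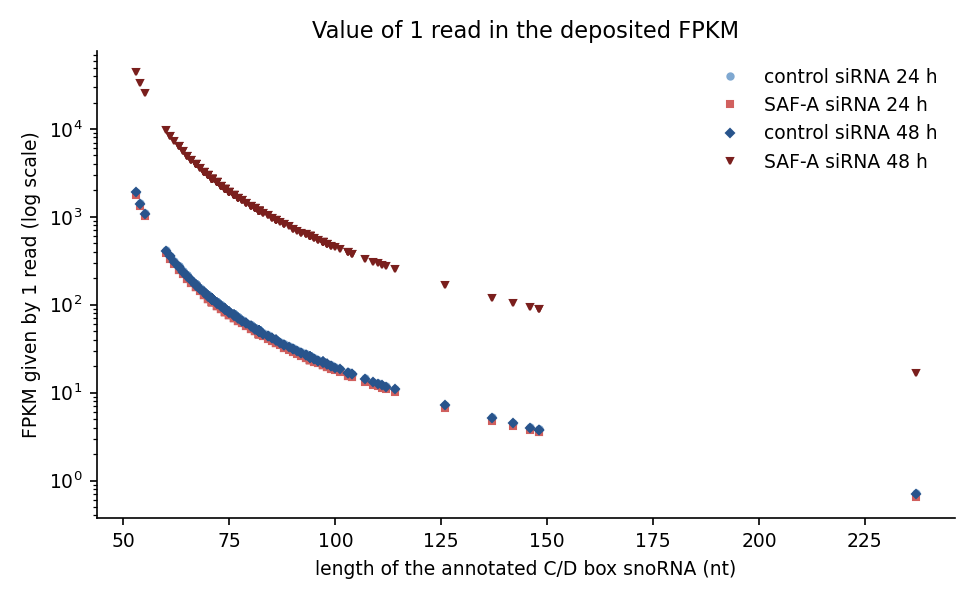
FPKM given by 1 read (log scale) against the annotated length of each C/D box snoRNA of at least 50 nt, in the 4 libraries. The 3 deep libraries lie on nearly the same curve, and the SAF-A 48 h library lies above them at every length.

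The sequences of 12 members on which the results turn are given 5′ to 3′ on the transcript strand, read from GRCh37 (hg19) at the deposited positions. Capitals mark the C box and the D box, the paired motifs that the core proteins bind. The first 5 are among the members of 100 nt or more with most reads, SNORD26 and SNORD27 come from neighbouring introns of one host, SNORD104 to SNORD33 are well covered short members, and SNORD116-14 stands for the imprinted array in 15q11-q13.
SNORD10: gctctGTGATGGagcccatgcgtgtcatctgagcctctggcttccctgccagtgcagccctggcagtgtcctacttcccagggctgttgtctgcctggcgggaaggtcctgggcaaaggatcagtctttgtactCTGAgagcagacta
SNORD15A: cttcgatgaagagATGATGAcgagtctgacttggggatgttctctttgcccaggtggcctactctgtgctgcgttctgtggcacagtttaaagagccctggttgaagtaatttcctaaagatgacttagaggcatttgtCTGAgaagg
SNORD17: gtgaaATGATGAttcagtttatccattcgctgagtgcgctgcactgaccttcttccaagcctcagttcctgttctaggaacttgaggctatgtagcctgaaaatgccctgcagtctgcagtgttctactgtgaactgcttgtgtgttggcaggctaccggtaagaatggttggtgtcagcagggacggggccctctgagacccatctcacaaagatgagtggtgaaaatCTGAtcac
SNORD97: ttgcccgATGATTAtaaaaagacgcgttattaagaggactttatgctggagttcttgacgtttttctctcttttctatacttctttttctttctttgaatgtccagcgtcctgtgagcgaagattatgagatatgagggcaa
SNORD22: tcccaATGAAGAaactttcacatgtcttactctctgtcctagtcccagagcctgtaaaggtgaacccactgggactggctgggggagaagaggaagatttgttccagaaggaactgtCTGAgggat
SNORD26: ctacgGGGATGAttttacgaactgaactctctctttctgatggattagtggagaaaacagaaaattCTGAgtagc
SNORD27: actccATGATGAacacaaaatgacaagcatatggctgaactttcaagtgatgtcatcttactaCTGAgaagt
SNORD104: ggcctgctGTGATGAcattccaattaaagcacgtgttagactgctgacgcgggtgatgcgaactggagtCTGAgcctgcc
SNORD76: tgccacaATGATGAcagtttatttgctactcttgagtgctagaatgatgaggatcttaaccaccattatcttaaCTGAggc
SNORD47: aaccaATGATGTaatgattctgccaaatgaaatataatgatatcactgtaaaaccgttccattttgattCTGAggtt
SNORD33: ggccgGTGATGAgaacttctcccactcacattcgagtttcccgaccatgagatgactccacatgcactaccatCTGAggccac
SNORD116-14: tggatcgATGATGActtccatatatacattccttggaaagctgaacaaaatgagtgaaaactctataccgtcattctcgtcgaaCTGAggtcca

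All these members lie in introns or outside annotated transcripts of the deposited files, none in a host exon. SNORD10 (chr17:7480129-7480276, plus strand) lies in EIF4A1, and SNORD17 (chr20:17943353-17943589, minus strand) in SNX5. SNORD15A (chr11:75111435-75111582, plus strand) lies in RPS3. SNORD97 (chr11:10823014-10823155, minus strand) lies in EIF4G2, and SNORD22 (chr11:62620382-62620507), SNORD26 (chr11:62622764-62622838) and SNORD27 (chr11:62622484-62622555) lie on the minus strand in SNHG1. SNORD76 (chr1:173835773-173835853) and SNORD47 (chr1:173833507-173833583) lie on the minus strand in GAS5, and SNORD33 (chr19:49993874-49993956, plus strand) in RPL13A. For SNORD104 (chr17:62223438-62223517) and SNORD116-14 (chr15:25325288-25325381), both on the plus strand, no spanning host was found among the deposited transcripts.

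The C box was searched as ATGATGA or GTGATGA with at most 1 mismatch in the first 20 nt and the D box as CTGA in the last 16 nt. Both were found in 233 of 264 member loci on the primary chromosomes (88.3%), in 90.2% of those under 100 nt and 65.0% of those of 100 nt or more. None of the 106 loci of H/ACA box snoRNAs, the other large class of snoRNAs, held both. No member locus held both on the opposite strand. In SNORD97 no CTGA lies in that window, and the C boxes shown for SNORD10, SNORD97, SNORD22, SNORD26 and SNORD47 have 1 mismatch. The share with both boxes was 91.8% of 98 loci with 10 or more reads in all libraries together and 88.6% of 88 loci with 0 reads. The presence of the boxes therefore did not separate covered from uncovered members in these windows.

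Detection was uneven across the family. No read was found in any library for 84 of 255 members, 119 were detected in all 3 deep libraries, and 45 had at least 10 reads in each of those 3. A mean of 1 FPKM or more was reached by 171 members, 18 of them of 100 nt or more and 153 shorter. SNORD81, at 43 nt, and SNORD115-47, at 33 nt, are shorter than the 48 nt below which the deposited values give no level. The 20 longer members held most of the reads. They had 7203, 13782, 7735 and 706 reads in library order, while the 235 shorter members had 1509, 1946, 1638 and 21.

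At 24 h the longer members were higher with SAF-A siRNA. Their reads came to 256 RPM (reads per 1000000 mapped reads) with control siRNA and 449 RPM with SAF-A siRNA, a ratio of 1.75 (1.70 to 1.80). Of the 13 longer members with at least 10 reads in one of these 2 libraries, 12 were higher and 1 was lower, with a median log2 change of 0.87. Over all 13910 genes with that many reads, 5258 were higher and 8652 lower, with a median of −0.05. Among them, 108 were other RNAs under 300 nt, of which 98 were higher and 10 lower, with a median of 0.77. A member can pass this limit on its SAF-A reads alone. Of the 11 longer members with at least 10 reads in each of the 3 deep libraries, 10 were higher and 1 was lower. In the SAF-A libraries, fewer cells of a kind and less RNA per cell cannot be told apart in bulk RNA, and FPKM are relative to all mapped reads.

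Members that guide modification of U6, a spliceosomal small nuclear RNA, were among the longer ones. SNORD10 had 2223, 4429, 2394 and 245 reads, or 8586, 15648, 9084 and 21841 FPKM. Both SAF-A libraries lay above both control libraries, with a 24 h ratio of 1.82 (1.73 to 1.92). SNORD94, another U6 guide, had 122, 192, 110 and 17 reads and a 24 h ratio of 1.44 (1.14 to 1.82). SNORD8 and SNORD9, which lie in CHD8 and share a U6 target, had 46 and 5 reads in control 24 h and 100 and 22 in SAF-A 24 h. Their ratios were 1.99 (1.39 to 2.88) and 4.02 (1.49 to 13.6). SNORD67, also a U6 guide, had 6, 19, 5 and 0 reads. These 5 had higher values with SAF-A siRNA at 24 h, as nearly all longer members did.

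The other longer members with at least 10 reads were also higher at 24 h, except SNORD12B. SNORD15B, which guides methylation of the large subunit rRNA, had 1812, 2962, 1668 and 177 reads, with a 24 h ratio of 1.495 (1.41 to 1.59). SNORD22, whose frog counterpart (U22) is needed for maturation of the small subunit rRNA, had 659, 1282, 721 and 48 reads and a ratio of 1.78 (1.62 to 1.96). In both, each SAF-A library lay above each control library in RPM. SNORD16 (100 nt, in RPL4) had 13, 36, 17 and 1 reads, a ratio of 2.53 (1.31 to 5.21). SNORD17 had 1083, 2438, 1097 and 68 reads, and its ratio of 2.06 (1.92 to 2.21) at 24 h set it above its 2 control values, which were 38.6 and 38.4 RPM. SNORD97 had 870, 1454, 626 and 94 reads and a ratio of 1.53 (1.40 to 1.66). SNORD89 had 35, 62, 28 and 5 reads and a ratio of 1.62. SNORD12B, in ZFAS1, had 31, 24, 25 and 0 reads, and its ratio of 0.708 (0.398 to 1.25) was the only one under 1 among the 13.

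**Figure D2:**
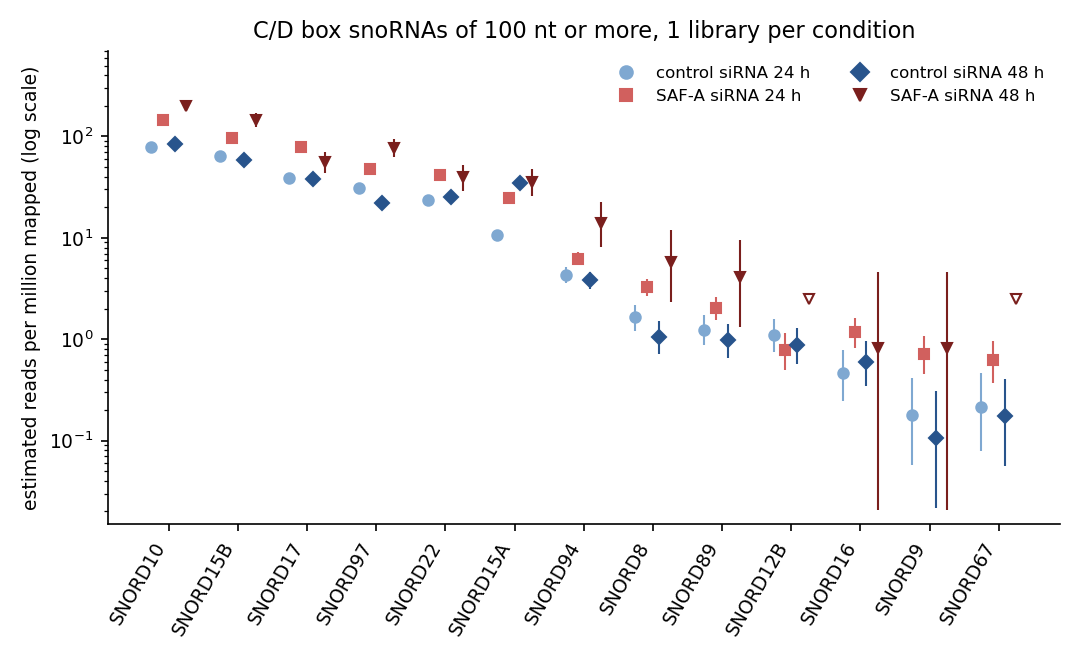
Estimated RPM (log scale) of the 13 members of 100 nt or more with most reads, in the 4 libraries, with 95% Poisson counting intervals. An open marker is the level of 3 reads where a library had none. The SAF-A 24 h squares lie above the control 24 h circles for every member drawn except SNORD12B.

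At 48 h the longer members were also higher with SAF-A siRNA, with 271 RPM in control 48 h and 580 in SAF-A 48 h, a ratio of 2.14 (1.98 to 2.32). That library held only 706 reads of the class. SNORD10 was 2.40-fold (2.0995 to 2.74), SNORD15B 2.49-fold (2.12 to 2.91) and SNORD97 3.53-fold (2.81 to 4.39) its level in control 48 h. SNORD17 was 1.46-fold (1.12 to 1.86) and SNORD22 1.56-fold (1.14 to 2.096). SNORD15A did not differ beyond counting error, at 1.01-fold (0.729 to 1.375). Of 11 longer members with at least 10 reads in one library of the pair, 10 were higher and SNORD12B, with 25 reads against 0, was lower.

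Between the control libraries the longer members differed little as a class, with a 48 h to 24 h ratio of 1.055 (1.02 to 1.09), but single members moved apart. SNORD15A, which had 298, 759, 997 and 43 reads, differed most among the well covered members, with a control ratio of 3.29 (2.89 to 3.75). SNORD15B, from another intron of RPS3, had a ratio of 0.904 (0.846 to 0.967), and SNORD97 had 0.707 (0.637 to 0.784). The difference of SNORD15A between the 2 control libraries was larger than its difference between siRNAs at 24 h, which was 2.33-fold (2.04 to 2.67). Without SNORD15A and SNORD15B the control ratio of the class was 0.978 (0.941 to 1.02), and the SAF-A ratios were 1.81 at 24 h and 2.25 at 48 h. RPS3 itself was at 363 and 449 FPKM in the control libraries.

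The members under 100 nt were close between siRNAs at 24 h. Their reads came to 53.7 RPM with control siRNA and 63.4 with SAF-A siRNA, a ratio of 1.18 (1.10 to 1.26), and to 57.3 in control 48 h. Of the 34 with at least 10 reads in each of the 3 deep libraries, 21 were higher and 13 lower at 24 h, with a median ratio of 1.07 and a range of 0.538 to 3.02. For the 11 longer members by the same limit the median ratio was 1.78.

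Of the 12 short members with most reads, several were level between the siRNAs. SNORD104 had 81, 85, 97 and 2 reads in library order, and SNORD76, in GAS5, had 88, 94, 69 and 1. Their 24 h ratios were 0.960 (0.6996 to 1.32) and 0.977 (0.723 to 1.32). SNORD26 and SNORD28 from SNHG1 had 45 and 43 reads in control 24 h and 45 and 42 in SAF-A 24 h. SNORD4A, in RPL23A, had 48, 42, 36 and 1 reads, and SNORD80, in GAS5, 35, 36, 55 and 0. In none of these 6 did the 24 h interval exclude 1. SNORD47 and SNORD79, both in GAS5, had ratios of 1.20 (0.849 to 1.70) and 1.07 (0.666 to 1.73), and SNORD32A, in RPL13A, 1.23 (0.827 to 1.83). Between the controls SNORD32A was lower at 48 h, at 0.523-fold (0.308 to 0.866).

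Of the 12, 3 were higher in SAF-A 24 h beyond counting error. SNORD49A, in SNHG29, had 44, 86, 68 and 0 reads, with a 24 h ratio of 1.79 (1.23 to 2.63), and its control 48 h value lay above control 24 h as well, 1.52-fold (1.02 to 2.27). SNORD33, which guides methylation of the small subunit rRNA, had 49, 90, 33 and 3 reads and a ratio of 1.68 (1.17 to 2.43). SNORD46, at 98 nt among the longest of the short class, had 61, 99, 47 and 4 reads and a ratio of 1.48 (1.07 to 2.08). SNORD27 in SNHG1, a guide for the small subunit rRNA with fewer reads, had 10, 33, 15 and 0 and the highest ratio among the 45 well covered members, 3.02 (1.45 to 6.87). SNORD21, at 95 nt in RPL5, had 14, 34, 13 and 1 reads, a ratio of 2.22 (1.16 to 4.48), and a gene on the opposite strand, DIPK1A, spans it. At the other end SNORD45C, in RABGGTB, had 17, 10, 10 and 0 reads and a ratio of 0.538 (0.220 to 1.24).

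**Figure D3:**
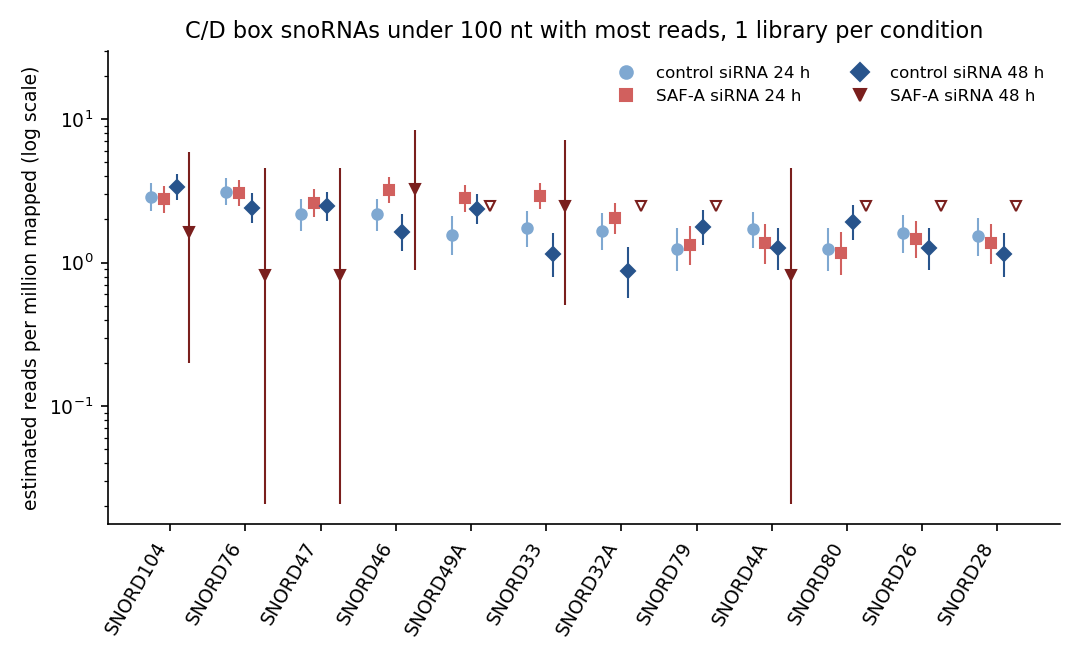
Estimated RPM (log scale) of the 12 members under 100 nt with most reads, in the 4 libraries, with 95% Poisson counting intervals. An open marker is the level of 3 reads where a library had none. In the SAF-A 48 h library 6 of the 12 had no read, and the 3 deep libraries overlap for most members.

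At 48 h the shorter members went the other way from the longer ones. The SAF-A 48 h library held 21 reads of the 235 shorter members, 17.3 RPM (10.7 to 26.4), against 57.3 RPM in control 48 h, a ratio of 0.301 (0.186 to 0.462). No single short member differed beyond counting error at this depth. For a member with 0 reads in SAF-A 48 h, the level that 3 reads would give is 2.47 RPM, which is above the control 48 h level of SNORD49A, 2.38 RPM. Summed FPKM of all members was 172792 in control 48 h and 86765 in SAF-A 48 h, while summed RPM went from 328 to 597. In control 48 h the short members held 142173 of that FPKM sum but 1638 of the 9373 reads.

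The ratio of SAF-A to control siRNA was lower in short than in long bins of annotated length at both times. At 24 h it was 0.915 (0.702 to 1.19) for the 34 members of 48 to 69 nt, 1.15 (1.03 to 1.28) at 70 to 79 nt, 1.14 (1.01 to 1.30) at 80 to 89 nt and 1.35 (1.18 to 1.55) at 90 to 99 nt. It was 1.79 (1.45 to 2.22) at 100 to 119 nt, 1.73 (1.58 to 1.885) at 120 to 139 nt and 1.69 (1.63 to 1.75) at 140 to 159 nt. At 48 h the members of 48 to 69 nt had 148 reads in control and 0 in SAF-A siRNA. The 48 h ratios were 0.0688 (0.00831 to 0.249) at 70 to 79 nt, 0.461 (0.198 to 0.916) at 80 to 89 nt, 0.648 (0.321 to 1.17) at 90 to 99 nt, 2.70 (1.43 to 4.70) at 100 to 119 nt, 1.84 (1.41 to 2.37) at 120 to 139 nt and 2.31 (2.11 to 2.52) at 140 to 159 nt. Between the control libraries the bins lay between 0.881 and 1.24. Across the 45 members with at least 10 reads in each deep library, log2 of length was set against log2 change. At 24 h the Pearson r was 0.51 and the Spearman rho 0.61, against 0.05 and −0.10 between the control libraries. These members share the libraries, and short members carry the fewest reads.

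**Figure D4:**
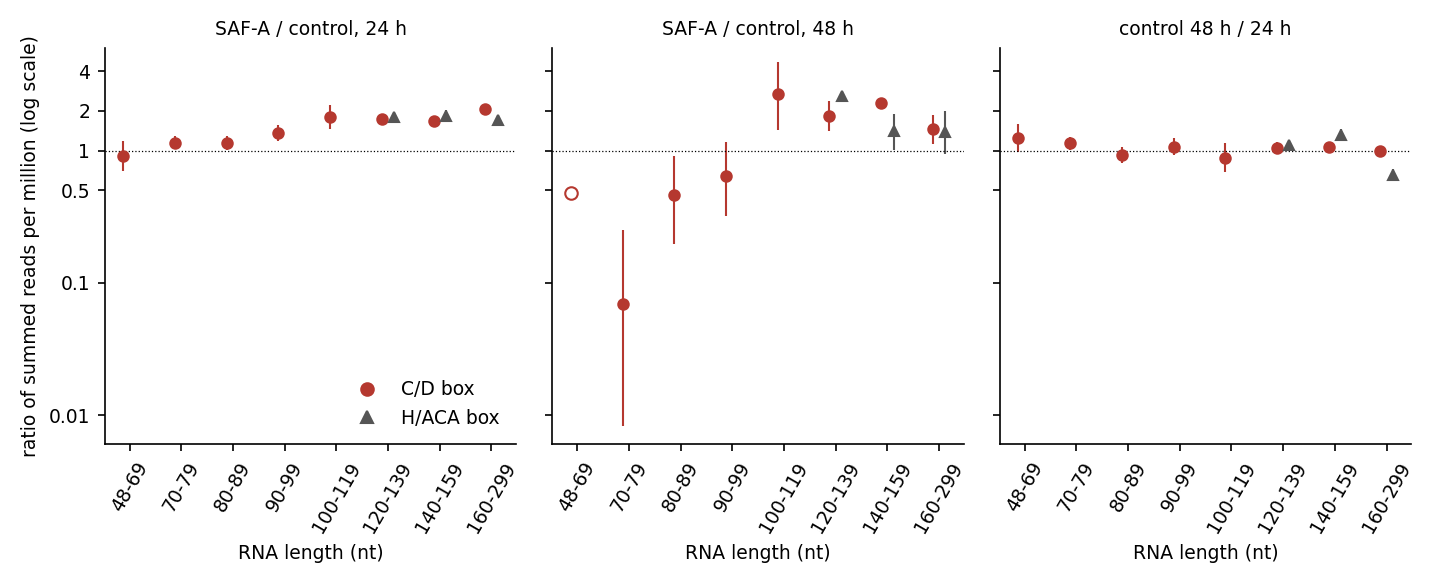
Ratio of summed RPM (log scale) by bins of annotated length for C/D box and H/ACA box snoRNAs, for SAF-A over control siRNA at 24 h and at 48 h and for control 48 h over control 24 h, with 95% counting intervals. The open circle at 48 to 69 nt is the ratio that 3 reads would give, since the SAF-A 48 h library had 0. The C/D box points lie lower on the left than on the right in both SAF-A panels and near 1 in the control panel.

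Other classes of small RNA did not all follow the longer members. H/ACA box snoRNAs, 104 symbols mostly of 120 to 139 nt, had SAF-A to control ratios of 1.78 (1.74 to 1.82) at 24 h and 2.48 (2.345 to 2.61) at 48 h, with 1.08 (1.06 to 1.11) between the controls. At the same length of 120 to 139 nt the C/D box ratio at 24 h was 1.73 and the H/ACA ratio 1.79, and their intervals overlapped. At 48 h they were 1.84 (1.41 to 2.37) and 2.59 (2.45 to 2.74), and the intervals did not overlap. That C/D box bin holds 2 members. RMRP, RNA of the ribonuclease MRP, was at 91167, 140633, 89803 and 99728 FPKM, with ratios of 1.54 at 24 h and 1.11 at 48 h. RPPH1, RNA of ribonuclease P, had ratios of 1.25 and 0.720, and TERC, the telomerase RNA, 1.07 and 0.391. The small nuclear RNAs RNU6ATAC, RNU11, RNU12 and RNU4ATAC, of 125 to 149 nt, were higher at both times. Their ratios were 1.92, 3.35, 2.49 and 3.59 at 24 h. At 48 h they were 2.34, 1.81, 9.79 and 1.74, on 22, 1, 5 and 2 reads in SAF-A 48 h. The 24 small Cajal body RNAs, which guide modification of spliceosomal RNAs, had 1.34 (1.31 to 1.37) at 24 h and 0.792 (0.727 to 0.863) at 48 h. Those of 120 to 139 nt had 1.49 (1.18 to 1.88) and 3.05 (1.57 to 5.46), and those of 160 to 299 nt 1.55 and 1.02. The 1406 rows of microRNA precursors under 100 nt had 0.948 (0.876 to 1.03) and 0.480 (0.303 to 0.724). All 1624 precursors together had 1.07 (1.04 to 1.10) and 0.564 (0.492 to 0.643). The part of RNA length and of the recovery of small RNAs in these ratios was not tested.

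A 2-fold threshold on FPKM + 1 counted members as follows. At 24 h, 46 of 171 members with a mean of at least 1 FPKM were higher and 27 lower, beside 1.83% and 1.25% of the 11631 genes tested. Most of those genes are longer than 300 nt. Of the 407 other RNAs under 300 nt by that rule, 124 were higher and 91 lower. Between the control libraries 35 members were higher and 26 lower at 48 h, beside 1.79% and 1.36%, and 111 and 85 of the 407 other RNAs. The counts at 24 h were thus close to those between controls. Among the members past 2-fold in either direction, 35 at 24 h and 32 between the controls were at 0 in one library of the pair and above 0 in the other. At 48 h, 13 were higher and 124 lower, beside 14.2% and 20.1%, and 122 of those past 2-fold were at 0 in one library of the pair and above 0 in the other. Another 23 of the 171 were at 0 in both. Of the 407 other RNAs, 61 were higher and 178 lower at 48 h. In the SAF-A libraries over time, 7 members were higher and 122 lower, beside 15.1% and 17.8%, and 31 and 177 of the 407 other RNAs.

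With at least 10 reads in one library of the pair, fewer members passed. At 24 h, 13 of 68 were higher and 0 lower, beside 0.676% and 0.266% of all genes by that rule, and 5 of the 13 were of 100 nt or more. Of 108 other RNAs under 300 nt by that rule, 32 were higher and 1 lower. No p-value stands behind the 0 members lower, since no test was possible. A member low in control can pass this limit on its SAF-A reads alone. With at least 10 reads in each of the 3 deep libraries, 2 of 34 shorter and 3 of 11 longer members were 2-fold higher at 24 h, and 0 lower. With 10 reads in one library of the pair, 6 of 65 members were higher and 3 lower between the controls, beside 0.638% and 0.459%. Of 110 other RNAs under 300 nt, 11 were higher and 6 lower there. At 48 h, 7 of 58 members were higher and 42 lower, beside 11.9% and 16.5%, and 44 and 20 of 103 other RNAs under 300 nt. Over time with SAF-A siRNA 2 of 64 members were higher and 44 lower, beside 12.8% and 14.2%, and 15 and 28 of 106 other RNAs under 300 nt. Of the 42 lower at 48 h, 41 were under 100 nt, and 37 of the 49 past 2-fold in either direction were at 0 in one library. The part of depth in these zeros was not tested.

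Members did not follow the level of their host genes at 24 h. Of the 45 members with at least 10 reads in each deep library, 36 had a named host, 21 hosts in all. For the 10 longer ones the median log2 change was 0.85, against −0.08 for their 9 hosts, and 9 of 10 were above their host. For the 26 shorter ones it was 0.055, against −0.0020 for their 14 hosts, with 15 above. Both host medians count a host once for each of its members. The host values themselves ranged from −0.33 to 0.51, and across the 36 members the host and member changes had a Pearson r of −0.38 and a Spearman rho of −0.47, where members of one host share its value. At 48 h, 9 of the same 10 longer members were above their host and 5 of the 26 shorter ones. The median log2 change of those 26 was −10.5, a value that members at 0 reads in the shallow SAF-A 48 h library give. Depth therefore limits the count of 5, and its part was not tested.

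The hosts of the longer members were flat or lower at 24 h. EIF4A1, a helicase of translation initiation that carries SNORD10, was at 443, 417, 392 and 210 FPKM. SNX5, a sorting nexin that carries SNORD17, was at 37.8, 29.96, 34.8 and 7.55 FPKM, so host and member lay on opposite sides of 1 at both times. RPS3, a ribosomal protein of the small subunit, was at 363, 357, 449 and 187 FPKM. EIF4G2, host of SNORD97, was at 253, 235, 236 and 321 FPKM. EIF4A2, host of the 70-nt SNORD2, went the other way, with 124 and 178 FPKM at 24 h beside 11 and 11 reads of its member.

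**Figure D5:**
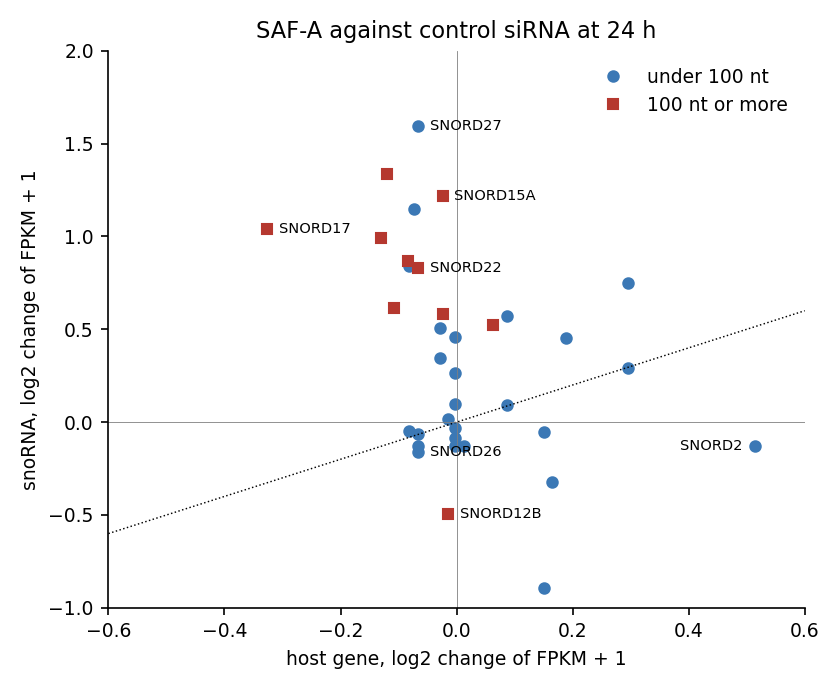
Log2 change of FPKM + 1 of each well covered C/D box snoRNA (y) against that of its host gene (x), SAF-A against control siRNA at 24 h, for 36 members of 21 hosts. The dotted line marks equal change. Squares (100 nt or more) lie above the line in 9 of 10 cases, and circles (under 100 nt) scatter on both sides.

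SNHG1 and GAS5 are noncoding genes whose introns each carry several members, so members of 1 host can be compared. SNHG1 was at 121, 116, 115 and 103 FPKM. Its one long member, SNORD22, was 1.78-fold at 24 h, SNORD26, SNORD28 and SNORD29 were at 0.915-fold, 0.893-fold and 0.958-fold, and SNORD27 was 3.02-fold. SNORD25 had 4 reads in control 24 h and 14 in SAF-A 24 h. The interval of SNORD22 (1.62 to 1.96) thus lay above those of SNORD26 (0.591 to 1.41) and SNORD28 (0.570 to 1.40) while the spliced host was level. SNORD27 was named for its high ratio and SNORD25 after its values were seen. GAS5 was at 106, 106, 138 and 159 FPKM. Its 10 members, all under 100 nt, had 270, 301, 296 and 2 reads together, a 24 h ratio of 1.02 (0.862 to 1.21). At 48 h, 2 reads against 296 gave a ratio of 0.159 (0.0191 to 0.579), while the host was at 1.15-fold.

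By kind of host, the summed ratio was higher for longer than for shorter members in each class with many reads, but few longer members carried it. At 24 h, 3 longer members in ribosomal protein genes had a ratio of 1.62 (1.53 to 1.71) and 35 shorter ones 1.22 (1.075 to 1.38). SNORD15A and SNORD15B held 3721 of the 3757 SAF-A 24 h reads of those 3. Between the control libraries those 3 had a ratio of 1.24 (1.17 to 1.31). In other coding genes 12 longer members had 1.82 (1.75 to 1.89) and 51 shorter ones 1.07 (0.881 to 1.29). In noncoding hosts 2 longer members had 1.73 (1.58 to 1.90) and 34 shorter ones 1.14 (1.02 to 1.275). Of those 2, SNORD22 held 1282 of the 1306 SAF-A 24 h reads, and SNORD12B was at 0.708-fold. In unspliced host RNA the same intron sequence is present, and reads from it cannot be told apart from the snoRNA in these tables.

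The imprinted arrays were covered unequally. In 15q11-q13, 75 members include 45 of SNORD115, 26 of SNORD116 and 4 single copies. SNORD115, which pairs with a serotonin receptor mRNA and is known from neurons, had 1, 0, 0 and 0 reads over its 45 members, where 3 reads would be 0.107 RPM in control 24 h. SNORD116, whose loss is tied to Prader-Willi syndrome, had 162, 259, 202 and 3 reads over 26 members. That is a 24 h ratio of 1.46 (1.20 to 1.79) and 1.225 (0.991 to 1.52) between the controls, so the 2 ranges overlap. The single copies had at most 1 read.

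Within SNORD116 the 3 members with the highest mean FPKM were near-identical copies. SNORD116-14 had 28.5, 42.5, 40.1 and 0 estimated reads, SNORD116-17 had 29.99, 35.8, 33.4 and 0.667, and SNORD116-21 had 27.6, 38.0, 32.7 and 0.333. SNORD116-14 shares 98.9% of its sequence with SNORD116-17 and 97.9% with SNORD116-21, so the deposited values divide reads between copies, and each copy alone is uncertain. SNURF, a protein-coding gene at the start of the host transcript, was at 57.3, 58.0, 61.8 and 185 FPKM. SNRPN, of the same host region, was at 0.385, 0.725, 0.655 and 9.84e-05 FPKM. No row mapped to the host gene SNHG14, so SNURF alone does not give the level of the host. IPW, a noncoding gene of the region, was at 1.25, 1.53, 0.978 and 0.191 FPKM.

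In 14q32, 38 members had 12, 21, 24 and 0 reads together, and 29 of the 38 were at 0 in all 3 deep libraries. SNORD114-21 had 7, 6, 15 and 0 of them and SNORD113-4 had 2, 5, 4 and 0. SNORD114-3 had 1, 8, 0 and 0. MEG3, the noncoding gene of that region, was at 0.752, 0.637, 1.33 and 0.645 FPKM, and DLK1, its paternally expressed neighbour, was at 0 in every library. Changes of these members between conditions were not detectable at this depth.

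Genes of the proteins that bind, assemble and trim C/D box snoRNAs stayed within 2-fold at 24 h, as most genes did. Of 33 genes of that list, 0 were 2-fold higher and 0 lower at 24 h, beside 1.83% and 1.25% of all genes. Their median log2 change was −0.08, against −0.06 over all genes. They ranged from LSM6 at 0.556-fold to LSM3 at 1.44-fold. Between the controls 0 and 0 were past 2-fold, beside 1.79% and 1.36%, with a median of −0.10. FBL (fibrillarin, the methyltransferase) was at 84.2, 86.6, 96.8 and 94.1 FPKM. NOP58, a core protein, was at 73.2, 58.9, 72.0 and 42.5 FPKM, and NOP56, its partner, at 147, 122, 124 and 58.9 FPKM. SNU13, which binds the C/D motif, was at 55.5, 55.5, 61.8 and 38.1 FPKM. At 48 h, 4 of 33 were higher, ZNHIT3, RPAP3, NOPCHAP1 and XRN2, and 3 lower, NOP56, NOLC1 and LSM6, beside 14.2% and 20.1% of all genes. XRN2, a nuclear 5′ to 3′ exonuclease that trims snoRNA ends, had 48.4 FPKM in control 48 h and 137 in SAF-A 48 h. NOLC1, a chaperone of snoRNPs in the nucleolus, had 64.9 and 23.1 FPKM.

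The 100 nt limit falls inside a continuous range of lengths, with 52 members of 90 to 109 nt. Just inside it, SNORD16 (100 nt) had a 24 h ratio of 2.53 and SNORD111B (101 nt) had 0, 2, 7 and 0 reads. Just outside it, SNORD126 and SNORD127 (99 nt) had 2, 1, 0 and 1 and 4, 0, 3 and 1 reads, and SNORD46 (98 nt) a 24 h ratio of 1.48. With a limit of 90 nt the 24 h ratios were 1.12 below and 1.73 above it, and with 120 nt they were 1.23 and 1.75.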

How the data were processed

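Total RNA of 4 cultures was read as 50-base single-end reads after removal of ribosomal RNA, per the labels. The authors deposited FPKM with 95% bounds per RefSeq accession, and transcript files with the same FPKM, positions and a score per feature, which was not used. TopHat2 2.0.10, Bowtie2 2.1.0, Cufflinks 2.2.1, Cuffdiff and build hg19 are named in the submitters' processing notes. Use of strand and treatment of reads with several matches are not given in the sources used here. The labels name a column kit for RNA extraction, and its recovery of RNAs of this length was not tested.

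Rows were matched to symbols through RefSeq (97.1% matched) and FPKM summed per symbol. Mapped reads came from coverage divided by FPKM, and reads per member from FPKM, mapped reads and the effective length under fragments of 200 ± 80 nt between 48 and 440 nt. That lower limit gave 90.9% whole reads among low values, against 29.3% or less at the other limits tried. Changes are log2(FPKM + 1) at a mean of at least 1 FPKM, 2-fold being called, which understates changes of low values. Ratios have exact conditional binomial 95% intervals and single levels exact Poisson intervals. Reads carry no molecular identifiers. The procedure was run on simulated Poisson counts, with the same effective lengths used to make and to invert the FPKM. That run therefore cannot check the assumed fragment lengths, the splitting of reads between copies or the spread between cultures. Of 264 member loci, 84.1% overlapped a snoRNA exon of GENCODE 44 on GRCh37.

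Members named are those of 100 nt or more (8) and under 100 nt (12) with most reads, the 5 highest and 5 lowest at 24 h and the 3 and 3 between controls among members with 10 reads in each deep library, 3 of each imprinted array, their hosts, and members at the length limit. SNORD9, SNORD67, SNORD89, SNORD25, SNORD29 and SNORD2 were chosen after their values were seen. The sequence of 1 further long member is not reported here. Members and lists were chosen with earlier results of these data known. Python 3.11.15, numpy 2.4.6, pandas 2.3.3 and scipy 1.17.1 were used.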

Additional observations from a re-analysis of the deposited data

Results flagged for a closer look

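The summed reads of members under 100 nt moved in opposite directions under the same contrast at the 2 times. SAF-A siRNA against control siRNA gave a log2 ratio of 0.24 at 24 h and −1.73 at 48 h. The 48 h value rests on 21 reads in a library of 1216740 mapped reads. The difference between the times was not tested, since each condition has 1 library, and depth and condition cannot be told apart there. MicroRNA precursors under 100 nt had ratios of 0.948 and 0.480 at the same times. The lower 48 h ratio was not limited to short precursors, since 2 of 160 to 299 nt had 1.18 and 0.439 (0.271 to 0.674).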

How the results depend on the processing

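No paired analysis was possible because each condition has 1 library and the labels carry no replicate numbers. Counts of members past 2-fold stayed within 1.5 times of the reported ones with a pseudocount of 0.1, no filter, a mean of 5 FPKM, TPM and centring on genes of at least 300 nt. Higher and lower counts were 8 and 1 at 24 h, 4 and 65 at 48 h, 4 and 1 between controls, and 1 and 70 over time with SAF-A siRNA when the deposited intervals could not overlap. With at least 10 reads they were 13 and 0, 7 and 42, 6 and 3, and 2 and 44. At 1.5-fold the higher count over time with SAF-A siRNA was 11. The median log2 change over members with a mean of 1 FPKM, 0.16 at 24 h, was 0.00 in TPM and 0.34 with 10 reads. At 48 h it was −7.06, and −10.4 with a pseudocount of 0.1, −7.22 in TPM and −9.73 with 10 reads. Over time with SAF-A siRNA it was −7.27, and −10.6, −7.16 and −9.26 by the same settings and −7.39 when centred. Medians at 48 h follow the pseudocount because most members are at 0 there. The log2 ratio of summed FPKM was 0.30 at 24 h, and 0.72 by reads and 0.11 in TPM. At 48 h it was −0.99 and turned to 0.87 by reads. Over time with SAF-A siRNA it was −1.12, turned to 0.22 by reads and was −0.89 in TPM. For summed reads of members below the length limit at 48 h the log2 ratio was −1.73, and −1.10 with a limit of 120 nt. Without SNORD15A and SNORD15B, chosen after seeing the data, the longer members gave 0.85 at 24 h and −0.032 between controls. Leaving out SNORD10, SNORD116 or members in host exons, also chosen after seeing the data, kept each sum within its counting interval. No condition has a second library, so no library could be left out. Depth at 48 h with SAF-A siRNA limits every statement on short members there.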
